A study of Rattus norvegicus with 12 samples.

Results

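Mitochondrial ribosomal proteins were followed as transcripts in the hearts of young adult rats. They were taken as all gene models of the deposited table whose symbol starts with Mrpl or Mrps, which gave 71 of 17322 models. Of these, 45 encode proteins of the large subunit and 25 proteins of the small subunit. The other, Mrps36, carries the family name but belongs to the alpha-ketoglutarate dehydrogenase complex. Mrps30 and Mrps18a are counted with the large subunit, where their proteins sit despite the letter in their symbols. By ancestry, 41 of the ribosomal members have a counterpart in bacterial ribosomes and 29 are specific to mitochondria.

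The mitochondrial ribosome sits at the inner mitochondrial membrane and translates only the messages of the mitochondrial genome, all of which encode subunits of the respiratory chain and ATP synthase. Its ribosomal RNAs come from mitochondrial DNA, while every one of its proteins is encoded in the nucleus, made in the cytosol and imported. The heart depends on oxidative phosphorylation for contraction, and inherited defects of several of these proteins, among them MRPL3, MRPL44 and MRPS22, cause cardiomyopathy.

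The 12 RNA sequencing libraries came from whole hearts of rats of the Sprague Dawley strain, all 15 weeks old. Gestational diabetes (GDM) was modelled by diet, in that GDM dams were kept on food high in fat and sucrose (HFS) before and during pregnancy and while nursing, and Lean dams on low fat (LF) food. Offspring were assigned at random, at 3 weeks, to LF or HFS. The 4 groups are named by dam and then by offspring diet (Lean-LF, GDM-LF, Lean-HFS, GDM-HFS), and each holds 3 libraries. The dam's diet and her diabetes cannot be told apart in this design. Litters are not given in the labels, so that the p-values below describe the spread among these libraries and may not speak for separate litters.

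The values are normalised reads of a gene model, not divided by length, scaled so that the bulk of genes is level between libraries. Reads outside ribosomal RNA models numbered 9172734 to 14418970 a library, of which 0.247 to 0.297% fell on the 71 members. GDM libraries had 2072016 more of these reads on average than Lean libraries (exact permutation p = 0.0216, two-sided), and HFS libraries 332393 more than LF libraries (exact permutation p = 0.732, two-sided). All 10 cardiomyocyte markers were present in all libraries, with summed values of 202000 to 266000 in 11 of them. Lean-HFS 2 stood apart with 152000, and it also had the highest summed macrophage (1020), fibroblast (9640) and skeletal muscle (5820) markers. The 7 atrial markers summed to between 703 in GDM-LF 1 and 17800 in GDM-HFS 1, a wide range for libraries that are all labelled as heart tissue. In bulk tissue, fewer cells of a type and less RNA per cell cannot be told apart.

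Nearly all of the family was measured well. A mean scaled value of at least 0.5 was required for a test, and 70 of the 71 members passed, against 12980 of all 17322 models. Their median level was 75.6 scaled reads, against 53.6 over all tested models. The median residual SD between libraries of a group was 0.16 on the log2 scale, against 0.207 over all tested models. Models of like level were not compared, so the family is not shown to be steadier than its level implies. The 67 members that the table gives as a single copy ran from 22.1 (Mrps28) to 287 (Mrpl3) scaled reads, and none of them had fewer than 72 reads in any library.

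The 4 lowest members were the 4 that the table lists with 2 genomic copies. Mrpl53 had 0 reads in all 12 libraries. Taken singly, a library with 0 reads allows an expected count of up to about 3 if each read is counted independently, which may not hold here. Mrpl30 had 0 to 6 reads and Mrpl36 had 0 to 12 reads a library. Mrpl1, of the stalk near which transfer RNAs leave the ribosome, had 39 to 104 reads, and the table places its model on chromosome 8 while RefSeq places the gene on chromosome 14 of GRCr8. How reads that match several places were counted is not known here, so the values of Mrpl53, Mrpl30, Mrpl36 and Mrpl1 are uncertain.

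Per kilobase of gene span, introns included, the highest levels belonged to short genes. Mrpl17 had 130 scaled reads per kilobase, Mrpl51 81.2, Mrpl41 67.9, Mrpl34 63.2 and Mrpl12, a stalk protein that also binds the mitochondrial RNA polymerase, 59.6. At the low end, apart from the copies above, were Mrps27, a small subunit protein with RNA-binding repeats, at 1.65 and Mrps31 at 2.43. Span bears on this order, as Mrps27 had 112 scaled reads, above the family's median, over a long gene (chr2:29598344-29666152, Rnor_6.0).

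The promoters are shown because most members had diet differences of the same sign, described below, and because the family is a textbook target of the nuclear respiratory factors NRF1 and GABPA (an ETS factor) and of YY1. RefSeq (build GRCr8) gave 58 promoter windows, each from 250 bases before to 50 bases after a start, for 56 of the 71 members. The first 3 are the relatives of bacterial protein S18, of which Mrps18b and Mrps18c go to the small subunit and Mrps18a to the large. Next come Mrpl57 and the exit tunnel proteins Mrpl22 and Mrpl23, which were among the members of smallest unadjusted p for dam or diet, and last the stretch between the starts of Mrpl46 and Mrps11. Each line gives the 200 bases before the start, 5′ to 3′ on the gene's strand, and the last gives all 233 bases between the starts on the plus strand. Capitals mark exact matches to GCGCA and GCGC with any base between (NRF1), CCGGAAG (ETS), AAGATGGC (YY1), AAGGTCA (the ERR core) or CACGTG (E-box) on either strand; at the end of Mrps18b the capitals are the first letters of an ETS match that runs over the start.
Mrps18a (chr9:22367381-22367580, minus strand): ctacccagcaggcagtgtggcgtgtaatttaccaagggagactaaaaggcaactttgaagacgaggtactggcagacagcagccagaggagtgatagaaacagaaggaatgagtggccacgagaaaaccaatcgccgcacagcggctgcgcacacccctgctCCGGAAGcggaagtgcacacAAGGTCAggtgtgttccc
Mrps18b (chr20:2842806-2843005, plus strand): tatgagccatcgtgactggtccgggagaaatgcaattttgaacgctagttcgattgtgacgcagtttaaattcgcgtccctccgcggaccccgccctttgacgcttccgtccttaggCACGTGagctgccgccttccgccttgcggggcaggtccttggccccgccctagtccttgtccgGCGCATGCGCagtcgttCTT
Mrps18c (chr14:9122907-9123106, minus strand): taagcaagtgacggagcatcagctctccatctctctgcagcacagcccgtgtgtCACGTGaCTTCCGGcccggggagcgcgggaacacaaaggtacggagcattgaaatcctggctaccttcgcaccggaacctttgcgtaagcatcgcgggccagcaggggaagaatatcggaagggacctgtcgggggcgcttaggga
Mrpl57 (chr15:36086257-36086456, plus strand): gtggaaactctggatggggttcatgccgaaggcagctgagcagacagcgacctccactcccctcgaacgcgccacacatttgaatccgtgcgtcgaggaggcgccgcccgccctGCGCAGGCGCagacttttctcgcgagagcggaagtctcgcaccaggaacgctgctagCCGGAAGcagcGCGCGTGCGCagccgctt
Mrpl22 (chr10:42845710-42845909, plus strand): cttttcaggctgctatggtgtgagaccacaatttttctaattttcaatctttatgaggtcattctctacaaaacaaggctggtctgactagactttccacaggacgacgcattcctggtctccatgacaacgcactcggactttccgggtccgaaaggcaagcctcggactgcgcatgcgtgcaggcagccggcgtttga
Mrpl23 (chr1:207116730-207116929, plus strand): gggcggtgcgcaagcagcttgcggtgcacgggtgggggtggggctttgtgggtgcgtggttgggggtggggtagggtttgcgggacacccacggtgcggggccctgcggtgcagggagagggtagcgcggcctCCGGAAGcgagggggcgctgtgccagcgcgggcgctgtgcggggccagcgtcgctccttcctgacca
Mrpl46 to Mrps11 (chr1:142117031-142117263, plus strand): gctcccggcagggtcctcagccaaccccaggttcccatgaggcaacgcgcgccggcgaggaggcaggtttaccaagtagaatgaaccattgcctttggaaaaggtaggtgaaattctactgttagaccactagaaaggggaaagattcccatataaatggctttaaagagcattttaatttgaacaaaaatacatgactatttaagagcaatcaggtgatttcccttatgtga

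The lines show how unlike the members are in the bases before the start. Mrpl57 holds NRF1 matches on both strands with an ETS match between them, beginning 86, 29 and 18 bases before the start. Mrps18b holds an NRF1, an ETS and an E-box match, Mrps18a an ETS match and an ERR core, and Mrps18c an E-box next to an ETS match. Mrpl22 holds none of the 5 letter strings, and neither does the stretch shared by Mrpl46 and Mrps11, which is poorer in G and C (45.1%) than the window of Mrpl23 (74.0%).

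Over the family, the YY1 string stood out most from the background. It was present in 14 of 58 member windows (24.1%), against 4.96% of the 10488 windows of tested models and 3.17% of all 33469 windows. The ETS string was in 20 (34.5%, against 15.8 and 8.75%) and the NRF1 string in 9 (15.5%, against 8.95 and 4.25%). At least 1 of these 3 was in 32 windows (55.2%, against 26.0 and 14.6%). The E-box was in 6 (10.3%, against 8.59 and 6.42%) and the ERR core in 3 (5.17%, against 3.03 and 4.61%). These are matches of letters, not binding sites, and they are given as shares without a test.

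**Figure D1:**
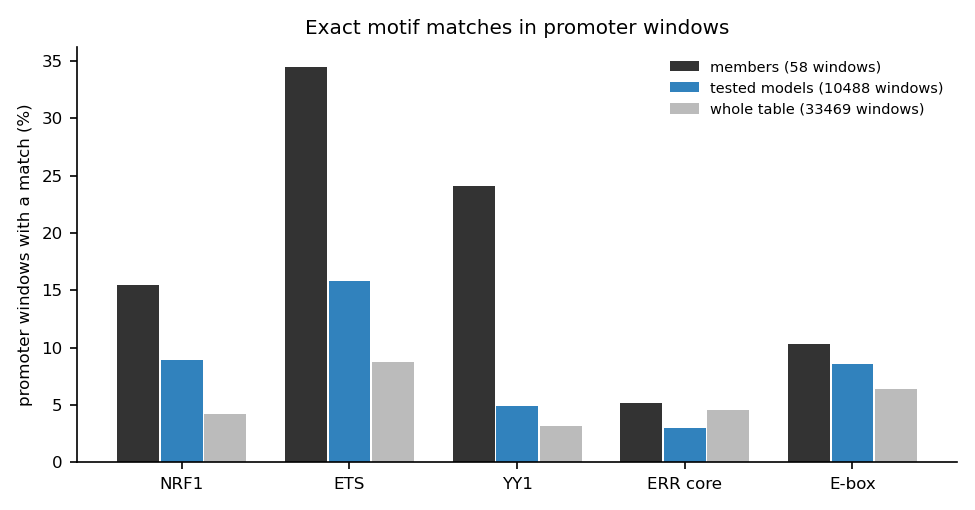
Share of promoter windows (y axis, percent) with an exact match to each of 5 letter strings (x axis) in members (58 windows), tested models (10488) and the whole RefSeq table (33469). The member bars for YY1 (24.1%) and ETS (34.5%) lie above both backgrounds, while those for the E-box (10.3%) and the ERR core (5.17%) are close to theirs.

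The YY1 matches also shared a place. In 11 of the 14 windows with a match (78.6%) it lay after the start and on the gene's own strand, against 46.3% of the windows with a match among tested models and 34.7% among all. It began between 1 and 31 bases after the start in these 11. The string holds the letters ATG, so a match at this place may also be the start codon of the protein. Which of them are start codons was not tested. The following 30 bases around 5 of them are shown to let the neighbourhood of the match (capitals) be compared, each on the gene's strand in GRCr8.
Mrps18a (chr9:22367362-22367391, minus strand): ggtgtgttcccAAGATGGCggccctcaggg
Mrpl37 (chr5:127074943-127074972, minus strand): ctgcccgggcaAAGATGGCggcgtccaggt
Mrps7 (chr10:101342637-101342666, plus strand): tgatagcggccAAGATGGCtgcccccgcac
Mrps30 (chr2:52195868-52195897, minus strand): cgcggaggacaAAGATGGCggctgccaggt
Mrps27 (chr2:32474222-32474251, plus strand): tggtacgctccAAGATGGCggcccccatgg

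Many members also start close to a neighbour on the opposite strand. Whether such neighbours share promoter elements was not tested. On the table's Rnor_6.0 coordinates, 18 of the 71 (25.4%) had the start of another model within 1000 bp on the opposite strand, pointing away, against 6.63% of all models. Among tested models the shares were 25.7% of the 70 members and 8.24% of all. Several partners are themselves mitochondrial. Mrpl46 and Mrps11, of different subunits, face away from each other over 234 bp. Mrps12 shares a region of 194 bp with Sars2, the mitochondrial seryl-tRNA ligase, Mrpl43 one of 128 bp with Twnk, the helicase of mitochondrial DNA, Mrpl47 one of 266 bp with the complex I subunit Ndufb5, and Mrps27 one of 91 bp with Ptcd2, which acts on mitochondrial messages.

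The post-weaning diet was examined first, averaged over both kinds of dam. No member passed the test in HFS against LF hearts, as was so for every other model (limma, Benjamini-Hochberg adjusted p under 0.05: 0 of 70 members, and 0.0% of 12980 tested models). Most members nevertheless had lower estimates on HFS. The log2 difference was below 0 for 65 of 70, against 47.8% of all tested models, with a median of -0.14 against 0.0083. At an unadjusted p under 0.05, 9 members were lower and 0 higher, against 3.91 and 4.01% of all tested models, and edgeR and DESeq2 on the recovered reads called 0 members each. In no member did all 6 HFS libraries lie below all 6 LF libraries, which was so for 0.208% of tested models.

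**Figure D2:**
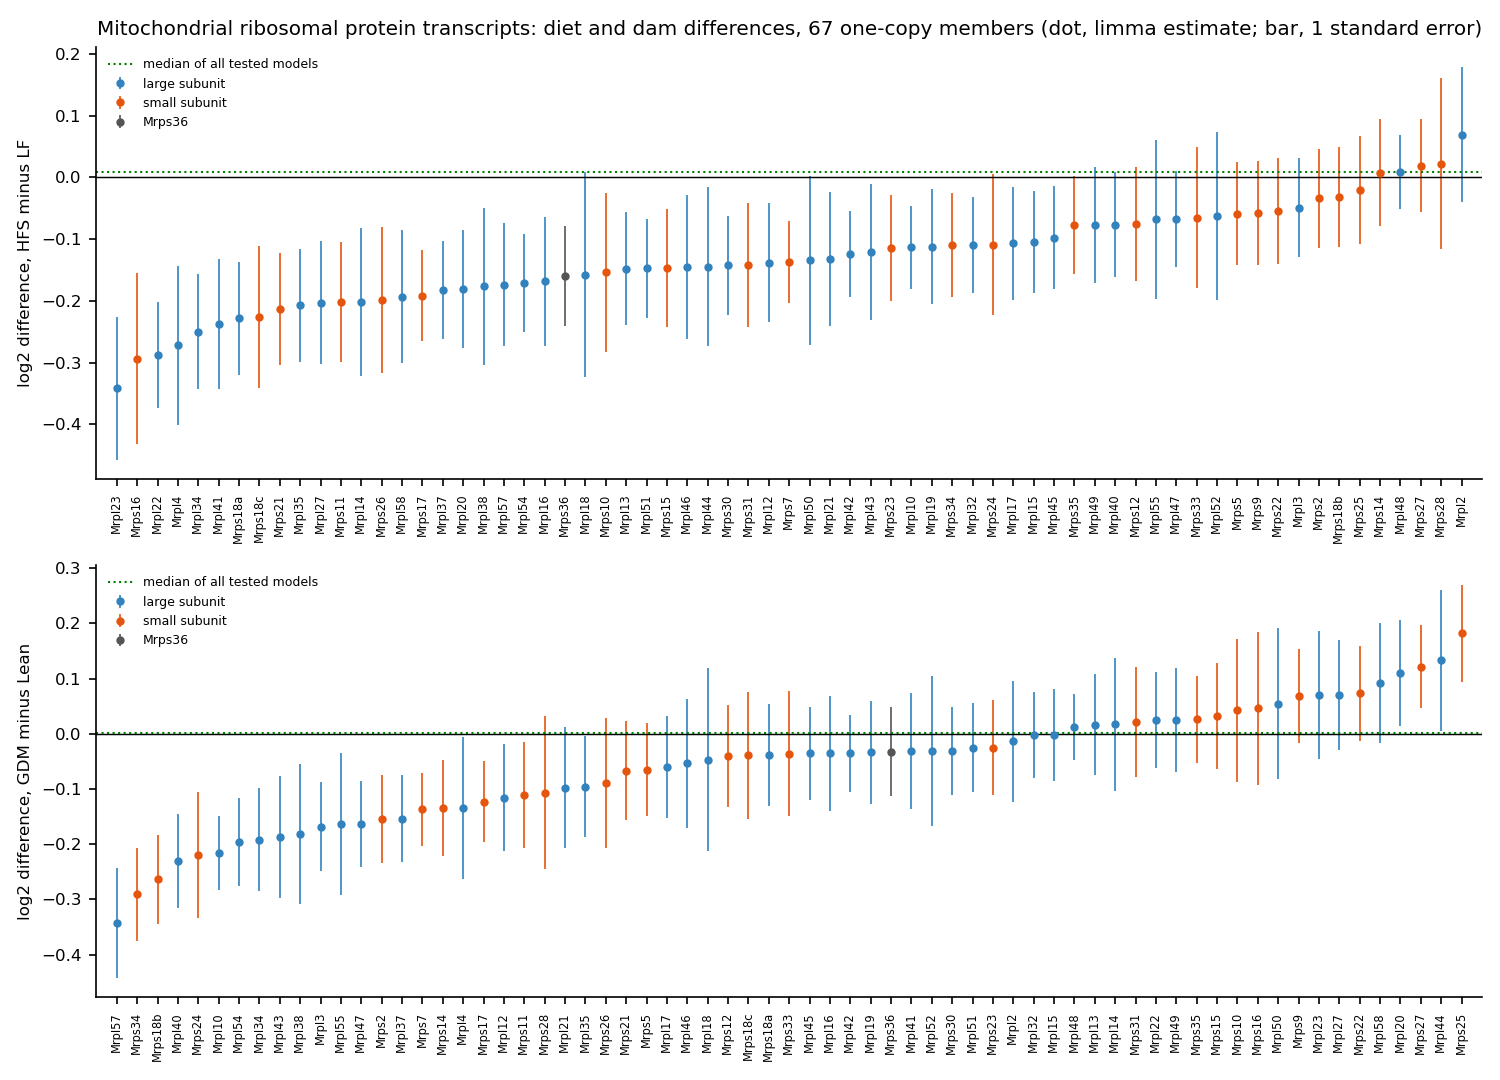
Log2 difference (y axis) of each of the 67 members with 1 copy (x axis, ranked) for HFS minus LF (top) and GDM minus Lean (bottom), with 1 standard error; blue marks the large and orange the small subunit, and the dotted line is the median of all tested models. Nearly all dots of the top panel lie below 0, from Mrpl23 at -0.34 to Mrpl2 at 0.070, while those of the bottom panel spread from Mrpl57 at -0.34 to Mrps25 at 0.18.

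The small shift ran through both subunits. Of 44 tested large subunit members 42 were below 0, with a median of -0.15, and of 25 small subunit members 22, with a median of -0.11. Members with a bacterial counterpart had a median of -0.15 (38 of 41 below 0) and mitochondria-specific members one of -0.12 (26 of 28). Mrps36, not a ribosomal protein, was at -0.16 ± 0.08 (SE). The 5 members above 0 were Mrpl2 (0.070), Mrps28 (0.023), Mrps27 (0.019), Mrpl48 (0.0090) and Mrps14 (0.0078), each within 1 SE of 0.

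Among large subunit proteins, Mrpl22 had the smallest unadjusted p for diet. Mrpl22, which lines the exit tunnel, had 55.8, 49.6 and 55.3 scaled reads in Lean-LF, 51.2, 41.5 and 50.7 in Lean-HFS, 62.6, 57.2 and 57.7 in GDM-LF, and 42.4, 42.3 and 49.4 in GDM-HFS. All 3 GDM-HFS values lay below all 3 GDM-LF values, whereas the Lean groups overlapped. Over both kinds of dam it averaged 56.4 ± 4.21 on LF and 46.2 ± 4.65 on HFS (SD, n = 6), a log2 difference of -0.29 ± 0.09 (SE; limma, Benjamini-Hochberg adjusted p = 0.473).

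Mrpl23, at the tunnel's mouth, had 43.6, 49.2 and 42.2 in Lean-LF, 36.7, 30.5 and 45.1 in Lean-HFS, 55.6, 50.3 and 42.5 in GDM-LF, and 32.1, 40.5 and 39.5 in GDM-HFS. Only Lean-HFS 3 reached the range of the LF libraries. Its means were 47.2 ± 5.38 on LF and 37.4 ± 5.49 on HFS (SD, n = 6), with a log2 difference of -0.34 ± 0.12 (SE; limma adjusted p = 0.513). Mrpl34 was at -0.25 ± 0.09, Mrpl41 at -0.24 ± 0.11, Mrpl4 at -0.27 ± 0.13, Mrpl37 at -0.18 ± 0.08 and Mrps18a, whose model overlaps that of Rsph9 and may share its reads, at -0.23 ± 0.09 (SE; limma adjusted p = 0.542, 0.615, 0.631, 0.608 and 0.579).

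Among small subunit proteins, Mrps17, an RNA-binding protein of the ancestral core, had the smallest residual SD of the family (0.065). It had 58.5, 53.7 and 58.1 scaled reads in Lean-LF, 50.4, 50.8 and 49.8 in Lean-HFS, 49.1, 54.0 and 55.5 in GDM-LF, and 45.8, 43.6 and 47.4 in GDM-HFS. Within each kind of dam all HFS values lay below all LF values, by little, with a log2 difference of -0.19 ± 0.07 (SE; limma adjusted p = 0.552). Mrps21 was at -0.21 ± 0.09 and Mrps16, at -0.29 ± 0.14, varied more between libraries (limma adjusted p = 0.597 and 0.632).

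Members known from human heart disease were close to the family's median or nearer to 0. Mrpl3 was at -0.049 ± 0.08, Mrpl44 at -0.14 ± 0.13 and Mrps22 at -0.054 ± 0.09 (SE; limma adjusted p = 0.885, 0.798 and 0.884). Mrps14, another such gene, had an estimate of 0.0078 ± 0.09. Mrps12, Mrps5, Mrps2 and Mrps7, all parts of the ancestral small subunit core, ranged from -0.14 (Mrps7, overlapping Gga3) to -0.034 (Mrps2, overlapping RGD1306233). Mrpl58, which rescues stalled ribosomes, was at -0.19 ± 0.11, and Mrpl12 at -0.14 ± 0.10.

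**Figure D3:**
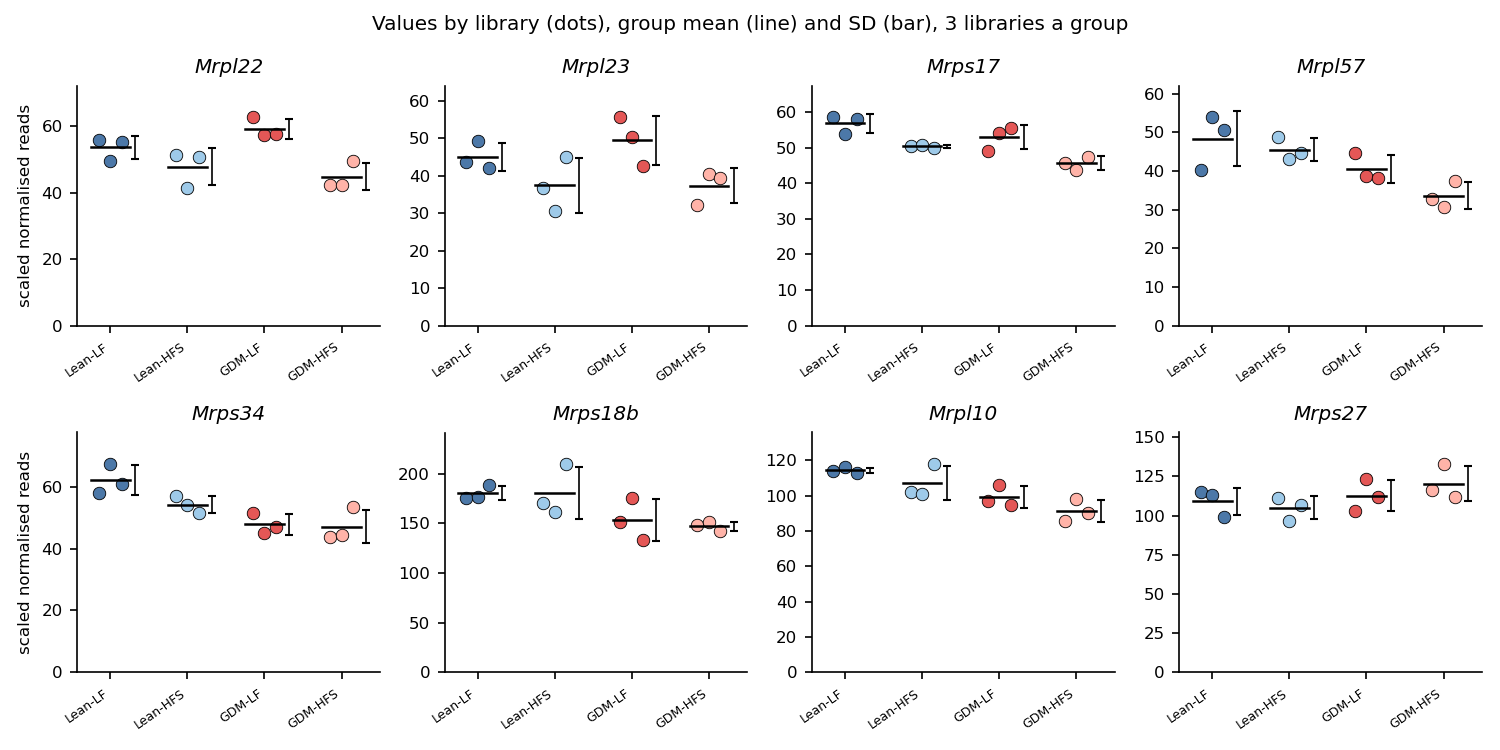
Scaled normalised reads (y axis, from 0) of 8 members in the 12 libraries (dots), by group (x axis), with the group mean (line) and SD (bar, n = 3). Mrps17 has HFS values below the LF values in each kind of dam, Mrpl57 and Mrps34 have their lower values in GDM hearts, and Mrps27 shows little difference between groups.

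The direction was the same in both kinds of dam for most members. The contrasts Lean-HFS against Lean-LF and GDM-HFS against GDM-LF share no library, and 57 of 70 members were below 0 in both, against 27.8% of tested models, with 1 (Mrps14) above 0 in both. In offspring of Lean dams 67 of 70 were below 0 (48.9% of tested models), with a median of -0.17. In offspring of GDM dams 59 of 70 were below 0 (48.7% of tested models), with a median of -0.12, which was -0.073 without GDM-LF 1 and -0.057 without GDM-HFS 1. No member passed the test in either (limma; 0.0% of tested models in both), and at an unadjusted p under 0.05 the lower members numbered 2 (2.57% of tested models) and 5 (2.7%).

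**Figure D4:**
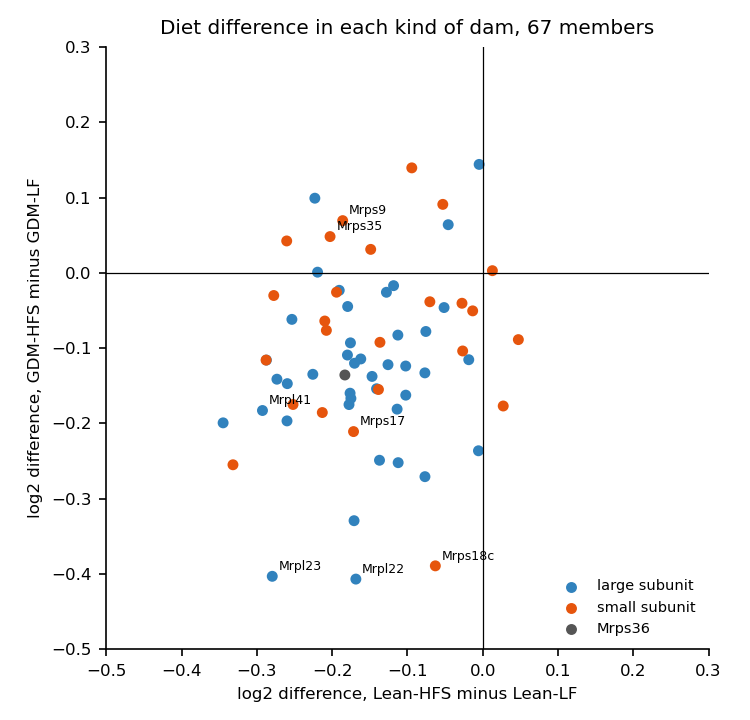
Log2 diet difference in offspring of GDM dams (y axis) against that in offspring of Lean dams (x axis) for the 67 members with 1 copy; blue, large subunit, orange, small subunit, grey, Mrps36. Most dots lie at the lower left, where both differences are below 0, and Mrps9 and Mrps35 are among those above 0 in GDM offspring only.

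Much of the diet shift moved with particular libraries and with the cardiomyocyte markers. Relative to each gene's mean over all 12 libraries, the median member deviated by 0.095, 0.099 and 0.12 (log2) in the Lean-LF libraries and by 0.023, -0.24 and 0.050 in the Lean-HFS libraries. The GDM-LF libraries were at 0.11, 0.065 and -0.093, and the GDM-HFS libraries at -0.17, -0.070 and 0.0079. Lean-HFS 2, the library with few cardiomyocyte transcripts, had 65 of 70 members below their own mean, GDM-HFS 1, with the most atrial transcripts, 62, and GDM-LF 3 had 51.

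The 10 cardiomyocyte markers were all below 0 in HFS against LF, with a median of -0.22, while all 7 atrial markers were above 0 (median 1.16). So were all 6 adipocyte markers (median 1.58) and all 4 smooth muscle markers (0.72), and all 5 erythroid markers were below 0 (-0.36). Their part in the members' diet differences was not tested. The mean cardiomyocyte marker was lowest in the same pair of libraries, at -0.42 in Lean-HFS 2 and -0.26 in GDM-HFS 1. Without Lean-HFS 2 the members' median diet difference was -0.090 (61 of 70 below 0), and without both libraries it was -0.047 (58 of 70). With the cardiomyocyte marker level of each library as a covariate it was 0.033, with 29 of 70 below 0. The marker level itself differed with diet, so this covariate also takes up part of any difference that goes with diet. The part of cell makeup in the family's shift cannot be told apart from that of diet in these libraries. With the atrial markers as a covariate it was -0.11 (64 of 70). In offspring of Lean dams alone, leaving out Lean-HFS 2 took the median from -0.17 to -0.059 and the count from 67 to 53. The share of all tested models below 0 in each of these alternative fits is not given here.

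**Figure D5:**
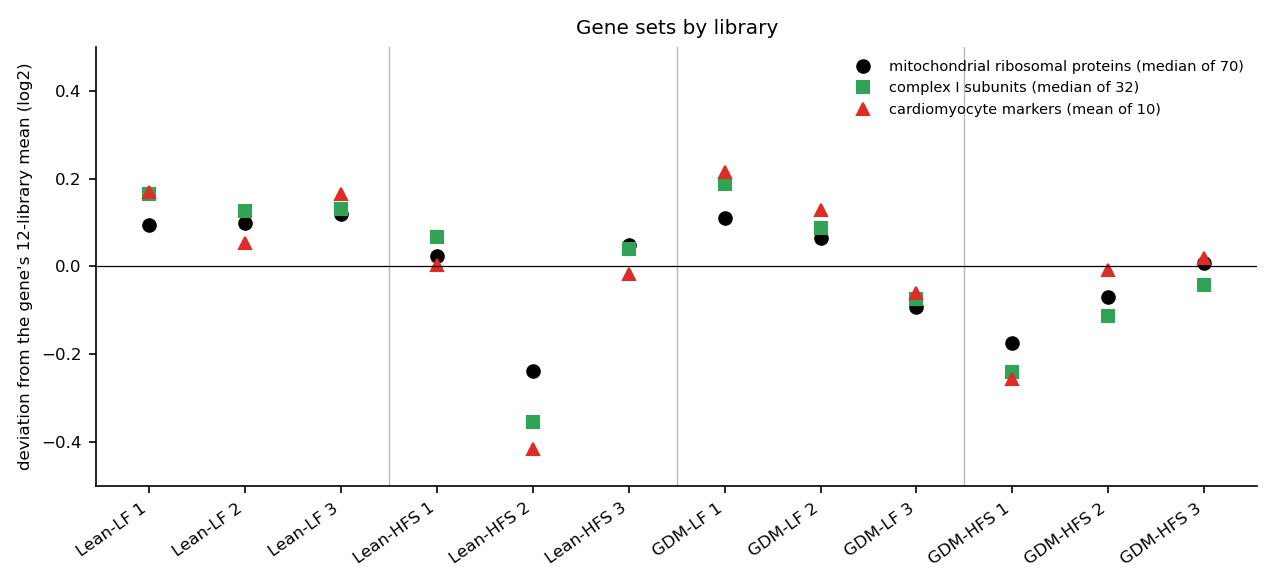
Deviation from each gene's mean over 12 libraries (y axis, log2) in each library (x axis): the median of 70 members (circles), the median of 32 complex I subunits (squares) and the mean of 10 cardiomyocyte markers (triangles). All 3 are lowest in Lean-HFS 2 and next lowest in GDM-HFS 1, and all 3 Lean-LF libraries are above 0.

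Complex I, whose core subunits include the products of the mitochondrial ribosome, gave the nearest comparison. All 32 tested nuclear subunits of complex I were below 0 in HFS against LF, against 47.8% of tested models, with a median of -0.21. At an unadjusted p under 0.05, 18 of them were lower, against 3.91% of tested models, and 0 passed the adjusted test (limma, smallest adjusted p = 0.389). They too had their lowest library median in Lean-HFS 2 (-0.35). The members' median was nearer to 0 at -0.14; whether the sets differ was not tested.

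The rest of the mitochondrial translation machinery was read from a list of 68 genes, of which 61 were tested. In HFS against LF 50 of 61 were below 0, against 47.8% of tested models, with a median of -0.092, and 0 passed the test (limma, smallest adjusted p = 0.421). At an unadjusted p under 0.05, 4 were lower and 1 higher, where 3.91 and 4.01% of tested models were. By role, the medians were -0.14 for 5 mitoribosomal proteins with other names and -0.096 for 10 initiation, elongation and release factors. They were -0.13 for 7 genes grouped as regulators of mitochondrial messages, -0.068 for 22 assembly and RNA-modifying factors and -0.077 for 17 genes grouped as tRNA ligases. The roles are those of the list, which puts Oxa1l and Mpv17l2 with the message regulators and Gatc and Qrsl1 with the ligases.

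Gadd45gip1, a large subunit protein also known as CRIF1, had 82.8, 75.9 and 73.0 scaled reads in Lean-LF, 59.5, 53.3 and 67.3 in Lean-HFS, 84.1, 77.3 and 64.7 in GDM-LF, and 61.4, 59.9 and 67.1 in GDM-HFS. Only GDM-LF 3 among the LF libraries fell within the HFS range, and the log2 difference was -0.31 ± 0.09 (SE; limma adjusted p = 0.421). The elongation factor Tufm, at -0.18 ± 0.08, and the mitochondrial alanyl-tRNA ligase Aars2, at -0.30 ± 0.13, had lower estimates as well (limma adjusted p = 0.611 and 0.594). Mettl15, which methylates the small ribosomal RNA, went the other way, from 50.0 ± 5.34 to 61.4 ± 8.15 (SD, n = 6), at 0.29 ± 0.10 (SE; limma adjusted p = 0.513). Dap3, a small subunit GTP-binding protein, was at -0.012 ± 0.07, the message stabiliser Lrpprc at -0.12 ± 0.08, Mterf4 at -0.17 ± 0.12 and Taco1, the activator of COX1 synthesis, at -0.26 ± 0.13.

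The dam was examined next, averaged over both diets. No member passed in GDM against Lean hearts (0 of 70; limma, with 0.0616% of tested models called), nor with edgeR or DESeq2. The members were spread on both sides of 0: 48 of 70 were below 0, against 49.6% of tested models, with a median of -0.036 against 0.0015. At an unadjusted p under 0.05, 6 members were lower and 0 higher, against 5.48 and 5.76% of tested models. In no member did the 6 GDM libraries all lie below the 6 Lean libraries, which was so for 0.401% of tested models. The median was -0.083 on LF (51 of 70 below 0, against 50.4%) and -0.027 on HFS (41 of 70, against 49.1%), with 0 members called in each (0.0308 and 0.0154% of tested models). Single libraries moved both: the median on LF was -0.016 without GDM-LF 3, and that on HFS was 0.047 when GDM-HFS 1 was left out, 0.019 when Lean-HFS 3 was, 0.017 when Lean-HFS 1 was, -0.070 when GDM-HFS 3 was and -0.12 when Lean-HFS 2 was.

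The 6 lower members came from both subunits. Mrps34, a mitochondria-specific protein of the small subunit, had 58.0, 67.5 and 61.1 scaled reads in Lean-LF, 57.1, 54.0 and 51.7 in Lean-HFS, 51.7, 45.0 and 47.0 in GDM-LF, and 43.7, 44.4 and 53.4 in GDM-HFS. The GDM-LF values all lay below the Lean-LF values, and GDM-HFS 3 overlapped the Lean-HFS range. Its means were 58.2 ± 5.58 in Lean and 47.5 ± 4.08 in GDM hearts (SD, n = 6), a log2 difference of -0.29 ± 0.08 (SE; limma adjusted p = 0.242).

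Mrpl57, a short mitochondria-specific protein of the large subunit, had 40.3, 53.9 and 50.7 in Lean-LF, 48.9, 43.0 and 44.7 in Lean-HFS, 44.7, 38.8 and 38.1 in GDM-LF, and 32.8, 30.6 and 37.4 in GDM-HFS. The 3 GDM-HFS values were the lowest of all 12. The log2 difference was -0.34 ± 0.10 (SE; limma adjusted p = 0.242), and the smallest adjusted p of any member in any setting tried was that of Mrpl57 with DESeq2 (adjusted p = 0.0969). Its model overlaps that of Ska3, so its reads are uncertain.

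Mrps18b had 176, 177 and 189 scaled reads in Lean-LF, 170, 161 and 210 in Lean-HFS, 151, 176 and 133 in GDM-LF, and 148, 151 and 142 in GDM-HFS. All but GDM-LF 2 of the GDM libraries lay below every Lean library, and the log2 difference was -0.26 ± 0.08 (SE; limma adjusted p = 0.259). Its relatives had estimates nearer to 0, with Mrps18a at -0.038 ± 0.09 and Mrps18c at -0.039 ± 0.11, and the difference among the 3 was not tested. Mrpl10, of the stalk base that binds Mrpl12, went from 111 ± 7.35 to 95.3 ± 7.09 (SD, n = 6), at -0.22 ± 0.07 (SE; limma adjusted p = 0.262). Mrpl40 was at -0.23 ± 0.09 and Mrpl54 at -0.20 ± 0.08 (limma adjusted p = 0.356 and 0.395).

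The depth of the libraries moved with the dam, as given above. Depth as a covariate therefore also takes up part of any difference that goes with the dam. With depth as a covariate the members' median in GDM against Lean was 0.070 (28 of 70 below 0), and without GDM-LF 3 it was -0.0063 (37 of 70). Without Lean-HFS 2 it was -0.094 (57 of 70). For these alternative fits too, the share of all tested models below 0 is not given here. The atrial markers were above 0 in GDM against Lean hearts, 7 of 7 with a median of 0.96, and with them as a covariate the members' median was -0.024. Smooth muscle markers were also above 0 (4 of 4, median 0.65), while erythroid (5 of 5, -0.55), macrophage (6 of 6, -0.38) and skeletal muscle markers (3 of 3, -0.80) were below 0. The part of these tissues in the members' differences was not tested.

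Of the other translation genes, 36 of 61 were below 0 in GDM against Lean, against 49.6% of tested models, with a median of -0.037. None passed the test (limma, 0 called, smallest adjusted p = 0.386), and 5 were lower and 0 higher at an unadjusted p under 0.05, where 5.48 and 5.76% of tested models were. Gatc, of the enzyme that completes glutaminyl-tRNA, was at -0.26 ± 0.10, the small subunit protein Chchd1 at -0.23 ± 0.09 and Ptcd2 at -0.21 ± 0.09 (SE; limma adjusted p = 0.386, 0.398 and 0.398). Ptcd2 is the divergent neighbour of Mrps27, which was at 0.12 ± 0.08 in the same contrast (limma adjusted p = 0.572). In the pair Mrpl46 and Mrps11 both differences were below 0 in each averaged contrast, at -0.15 and -0.20 for diet and -0.053 and -0.11 for dam.

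Whether the diet difference itself differed between kinds of dam was read from the interaction. Of 70 members 46 were above 0 and 24 below, where 49.0% of all tested models were below 0, and the median was 0.047. The direction of that median rested on single libraries, as it was -0.052 without Lean-HFS 2, -0.018 without GDM-LF 3 and -0.012 without GDM-HFS 3. No member passed (limma, smallest adjusted p = 0.999; 0.0% of tested models called), and 0 had an unadjusted p under 0.05, which 1.38% of tested models had above 0 and 1.63% below. The 4 members of smallest p were Mrps35 (0.25 ± 0.16), Mrps9 (0.26 ± 0.17), Mrpl32 (0.22 ± 0.16) and Mrps18c (-0.33 ± 0.23). Mrps18c had 51.1, 59.4 and 44.0 scaled reads in Lean-LF, 52.0, 40.0 and 56.3 in Lean-HFS, 56.8, 60.8 and 50.0 in GDM-LF, and 50.0, 39.4 and 39.0 in GDM-HFS, and its groups overlapped or touched. Of the translation list, Qrsl1, of the same enzyme as Gatc (0.50 ± 0.19), Gtpbp10, a large subunit assembly GTPase (0.63 ± 0.26), and Malsu1, which keeps the large subunit from joining early (-0.42 ± 0.20), had the smallest p (limma adjusted p = 0.999 for each).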

How the data were processed

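Per the labels, RNA depleted of ribosomal RNA was sequenced as pairs of 100 bp reads and aligned to Rnor_6.0 with STAR 2.5.1b; HOMER 4.9, FastQC, edgeR and Trim Galore stand in the submitters' processing notes as well. The deposited values, called FPKM by the table's name, are a normalised read signal: whole multiples of 1 step per library (within 0.1 read for 99.9932% of values), not divided by length. The planned test was kept. Values were divided by median-of-ratios factors (0.890 to 1.15), and log2(value + 0.1) was fitted in limma 3.58.1 (R 4.3.3) with 4 group means over 12 libraries (8 residual degrees of freedom), in 7 contrasts, with Benjamini-Hochberg adjustment over 12980 models with a mean of at least 0.5. Log2 differences are on that scale and understate changes of low genes. edgeR 4.0.16 and DESeq2 1.42.0 on recovered reads were alternatives. Of the low recovered counts, 67.8 to 73.6% were even, by library. Whether both reads of a pair were counted was not tested. edgeR and DESeq2 take each read as a separate count, which may not hold here. The fit was also run on simulated counts with planted differences much larger than the members' median differences. That run cannot show how the fit performs at the sizes described here.

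The rule by which reads were given to models, and its use of strand, were not stated in the sources used here. Models that overlap another one may share its reads, which touches 6 members (Mrpl13, Mrpl47, Mrpl57, Mrps18a, Mrps2 and Mrps7). No other deposited columns of sample values were left unused. The members and lists were chosen with earlier results of these data known. Members named in the text are the 8, 6 and 4 of smallest unadjusted p in the diet, dam and interaction contrasts, the 5 highest and 5 lowest per kilobase, a fixed list of members with known roles (Mrpl11 was not analysed here) and those overlapping another model; the 5 above 0 for diet, Mrps25 and the members named with a divergent partner (among them Mrpl43, Mrpl46, Mrpl49, Mrpl50 and Mrps11) fall outside the rule and were named after their values were seen. Promoters came from RefSeq GRCr8 and were used apart from the Rnor_6.0 coordinates of the table. Mrpl13, Mrpl47, Mrps15 and Mrps30, also named by the rule, had diet differences of -0.15, -0.067, -0.15 and -0.14.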

Additional observations from a re-analysis of the deposited data

How the results depend on the processing

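No member was called in any of the 7 contrasts under any alternative, including each library left out in turn, so the counts of calls were 0 throughout; medians are therefore descriptions. Leaving out 1 library gave member medians of -0.17 to -0.090 for HFS against LF, -0.20 to -0.059 in Lean dams' offspring, -0.18 to -0.057 in GDM dams' offspring, -0.094 to -0.0063 for GDM against Lean, -0.11 to -0.016 on LF, -0.12 to 0.047 on HFS, and -0.052 to 0.098 for the interaction. Values as deposited, without scaling, lifted the median of all tested models to 0.11 in both averaged contrasts. The member medians were then 0.074 for GDM against Lean, 0.031 on LF and 0.079 on HFS. For HFS against LF it was -0.042, which is -0.15 relative to all models. With depth as a covariate, GDM-HFS against Lean-HFS was at 0.099. Depth, the marker covariates and the joint removal of 2 libraries were chosen after seeing the data. With cardiomyocyte markers as a covariate, the medians were 0.033 for HFS against LF, 0.017 in Lean and 0.0042 in GDM dams' offspring, and without Lean-HFS 2, alone or with GDM-HFS 1, the Lean value was -0.059.

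Diet differences of single members were followed for the 28 members that the naming rule gives for diet, a subset of the 70. Of these, the sign changed with the cardiomyocyte covariate in Mrpl12 0.087, Mrpl3 0.14, Mrpl44 0.094, Mrpl58 0.068, Mrps12 0.069, Mrps15 0.070, Mrps16 0.036, Mrps18b 0.070, Mrps2 0.056, Mrps22 0.033, Mrps36 0.045 and Mrps5 0.088. As deposited, without scaling, they were Mrpl3 0.050, Mrps12 0.023, Mrps18b 0.066, Mrps2 0.064, Mrps22 0.044 and Mrps5 0.039. Each of these lay below the median of all tested models in that setting, given above. Without both libraries they were Mrpl3 0.054, Mrps18b 0.0040 and Mrps2 0.0063, with edgeR Mrps14 -0.0010 and with the atrial covariate Mrps27 -0.041. The cause was not tested.

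The labels do not say that a replicate number marks a shared litter or day, and the libraries were treated as unpaired. Same-numbered libraries of different groups correlated at -0.098 to 0.12 in their deviations, while 8 of 12 correlated best with their own number. How many would do so without any pairing was not worked out. The count is a hint from the data, and beyond a fit with a replicate block it was not followed further. Each number occurs once in every group, so a replicate block cannot move the differences themselves, only their errors. The medians with the block were accordingly -0.14 for HFS against LF and -0.036 for GDM against Lean, as without it, and 0 members were called.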

Other observations

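The low values of the members with 2 copies belong to a pattern of the whole table. Of 498 models listed with 2 copies, 42.8% had no read in any library and the median level was 0.0323 scaled reads, against 12.4% and 25.6 for the 16766 models with 1 copy. Of the 556 models with more than 1 copy 27.3% passed the minimum level for a test, against 76.5% of the others. The cause was not tested.

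Of the 18 models that start within 1000 bp of a member and point away from it, 14 were below 0 for HFS against LF and 11 for GDM against Lean. The shares of all tested models below 0 were 47.8 and 49.6%, and of the 18 members 16 and 15 were below 0. The count of partners includes Mrpl46 and Mrps11 as each other's partner. The following partners were chosen after their values were seen. Fau, which encodes a cytosolic ribosomal protein and shares 205 bp with Mrpl49, was at -0.21 ± 0.06 (SE) for HFS against LF, while Mrpl49 was at -0.077. Ndufb5, next to Mrpl47, was at -0.26 ± 0.08, and Twnk, next to Mrpl43, at -0.12 ± 0.08. Zfp189, next to Mrpl50 (-0.13), was at 0.27 ± 0.11 in the same contrast. Hira, a histone chaperone that shares 186 bp with Mrpl40, was at 0.33 ± 0.14 for GDM against Lean, while Mrpl40 was at -0.23. No difference between partners was tested.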
